A study of Sus scrofa with 6 samples.

Results

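HSD17B and HSD11B genes encode hydroxysteroid dehydrogenases, enzymes that switch steroid hormones between a more active and a less active form. The set described here was chosen by gene name and held 10 symbols: HSD17B1, HSD17B4, HSD17B7, HSD17B8, HSD17B10, HSD17B11, HSD17B12, HSD17B14, HSD11B1 and HSD11B2. Of these, 9 matched 1 Ensembl identifier each among the 35670 of the count table, and 7 had enough reads to be among the 14242 genes tested. HSD17B14 had no identifier and was left out. HSD17B1 and HSD11B2 matched but had too few reads for the test, and are given as raw reads.

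The assay was stranded mRNA sequencing of granulosa cells from pig (Sus scrofa) ovaries in primary culture, which line the follicle around the oocyte and make estradiol. They had been aspirated from small follicles and grown in serum-containing medium to near confluence. The heat group was held at 42 °C for 6 h (n = 3 libraries) and the control group at 37 °C (n = 3). The labels call the libraries of a group biological replicates without naming separate animals or cultures, so the p-values below measure only the spread between these libraries.

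In the follicle, HSD17B1 is known as the granulosa cell enzyme that converts estrone to estradiol. The pair HSD11B1 and HSD11B2 sets the local level of cortisol: HSD11B1 regenerates it from cortisone and HSD11B2 inactivates it. Most of the other HSD17B enzymes can oxidise or reduce sex steroids but have main substrates elsewhere, in peroxisomal, mitochondrial or microsomal lipid metabolism or in cholesterol synthesis.

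Library totals lay between 20411952 and 29606378 counts in heat and between 18711440 and 22599356 in control. Across genes, heat 1 and heat 2 (Pearson r = 0.991 of log2 CPM) and control 2 and control 3 (r = 0.990) were nearly identical, while heat 3 (r = 0.909 and 0.916) and control 1 (r = 0.901 and 0.905) were less like the others of their groups. Heat 3 and control 1 were closer to each other (r = 0.920) than to any library of their own groups. CPM is the read count divided by the library total in units of 1e+06 counts, here scaled by TMM factors that correct for differences in RNA composition. Defining granulosa markers were scarce. FSHR, the FSH receptor, had 0 to 2 reads in the heat libraries and 6 to 49 in control, INHA (inhibin alpha) had at most 2 reads in heat and 7 in control, and AMH had at most 6 in heat and 3 in control. Other genes of the same marker list were abundant, with 26.4 to 44.7 CPM of WT1 in heat and 28.2 to 33.1 CPM in control. The fibroblast collagen gene COL1A1 reached 5579 to 20720 CPM in heat and 270 to 17710 CPM in control. In bulk RNA, fewer cells of a type and less RNA per cell cannot be told apart.

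Heat was set against control to find which genes of granulosa cells respond to 6 h at 42 °C. Among the steroid dehydrogenases HSD17B11 was lower in heat and was the only tested member past the threshold. The other tested members, HSD17B4, HSD17B7, HSD17B8, HSD17B10, HSD17B12 and HSD11B1, had overlapping groups and did not pass. By edgeR's quasi-likelihood test with Benjamini-Hochberg adjustment over all tested genes, 0 of 7 were called higher and 1 lower at an adjusted p below 0.05, where 6.71% of all tested genes were called higher and 4.32% lower. At an unadjusted p below 0.05 edgeR had 0 higher and 2 lower (HSD17B11 and HSD11B1), where 19.5% of all tested genes were higher and 14.4% lower. DESeq2 and limma-voom each called 0 higher and 1 lower. Over all tested genes DESeq2 called 14.9% higher and 12.6% lower, and limma-voom called 7.41% higher and 5.14% lower, so 1 of 7 lower by DESeq2 is near its background. Groups did not overlap in 1 of the 7, with heat below control, against 16.8% of all tested genes. The fitted difference was negative for 7 of 7, against 47.9% of all tested genes, and their median log2 fold change was -0.81 beside 0.05 over all tested genes. Those 7 are the members that had enough reads, so this count does not speak for the set of 10.

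**Figure D1:**
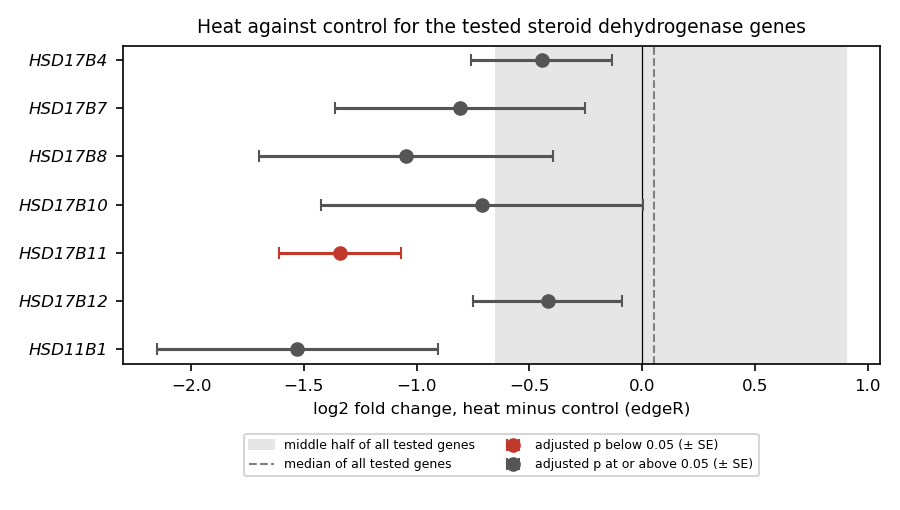
Log2 fold change, heat minus control, of the 7 tested steroid dehydrogenase genes with their standard errors (n = 3 libraries a group). The grey band runs from the lower to the upper quartile of all tested genes (-0.65 to 0.90) and the dashed line marks their median (0.05). Only HSD17B11, at -1.34, is drawn as passing the test.

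HSD17B11 (ENSSSCG00000009225) encodes a dehydrogenase found on lipid droplets and endoplasmic reticulum that can oxidise the androgen metabolite androstanediol. It stood at 28.6, 27.6 and 26.9 CPM in heat 1, 2 and 3, against 72.4, 77.4 and 60.6 CPM in control 1, 2 and 3. All heat libraries lay below all control libraries, and the heat libraries lay close together, with a coefficient of variation of 3.04% against 12.3% in control. The mean was 27.7 ± 0.843 CPM in heat and 70.1 ± 8.63 CPM in control (SD, n = 3 each), a log2 fold change of -1.34 ± 0.27 (SE; edgeR adjusted p = 0.0339), or 0.395 times the control level. Heat 3 and control 1, the libraries that stood apart in the transcriptome as a whole, sat with their own groups for this gene. The call was lost without heat 1, heat 2, control 2 or control 3 (edgeR adjusted p between 0.139 and 0.162), fits in which between 0 and 7 genes of the whole table were called. Without heat 3 or control 1 it held (edgeR adjusted p 0.0122 and 0.0126), and over all alternatives the log2 fold change stayed between -1.47 and -1.20. The fit without heat 3 called 5530 of 15325 genes and that without control 1 called 4922 of 15407.

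The summed theca and oocyte markers also separated the groups, while those of ovarian surface epithelium and of stroma and fibroblasts did not. Theca markers (10 in the table) summed to 29.5 to 80.6 CPM in heat and 6.64 to 27.6 CPM in control, with heat 3 just above control 1. Most of the sum was NR2F2 (21.5 to 48.9 CPM in heat, 3.93 to 16.2 CPM in control) and PTCH1. For PTCH1 the groups overlapped, at 5.75 to 29.1 CPM in heat and 1.53 to 10.0 CPM in control. The defining theca gene INSL3 was at 0 in every library and CYP17A1 had at most 4 reads in heat and 0 in control. None of the 4 theca markers tested passed. Oocyte markers (7 in the table) summed to 9.41 to 19.3 CPM in heat and 6.61, 6.07 and 5.36 CPM in control 1, 2 and 3, nearly all of it GDF9, with 4 of the 7 at 0 throughout. GDF9 was called higher (edgeR adjusted p = 0.0477).

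Ovarian surface epithelium markers (5 in the table) summed to 71.0, 109 and 20.6 CPM in heat 1, 2 and 3 and 22.4, 3.93 and 6.45 CPM in control 1, 2 and 3, with heat 3 just below control 1, and EPCAM was at 0 throughout. Of the 3 tested, 2 were called higher, where 6.71% of all tested genes were. The keratin gene KRT8 was at 7.93, 11.7 and 11.6 CPM in heat against 4.74, 1.49 and 2.38 CPM in control (edgeR adjusted p = 0.0477), and the uroplakin gene UPK3B was at 1.25, 1.35 and 1.07 CPM in heat against 0.200, 0.218 and 0.198 CPM in control (edgeR adjusted p = 0.0309). Neither KRT8 nor UPK3B overlapped between groups, and 20.9% of all tested genes likewise had each heat library above each control. KRT7, also tested, was at 61.7, 95.4 and 7.76 CPM in heat against 17.3, 2.23 and 3.87 CPM in control. Its groups overlapped and it did not pass (edgeR adjusted p = 0.103). KRT18 had too few reads to test, with 2 to 7 in heat and 0 to 3 in control. Stromal and fibroblast markers (11 in the table) summed to 28090 to 87940 CPM in heat and 6747 to 59130 CPM in control, so these groups overlapped. Of the 9 tested, MGP, a matrix protein gene, was called lower, in the direction of HSD17B11, at 3.79, 3.02 and 4.92 CPM in heat against 4.94, 51.8 and 46.4 CPM in control (edgeR adjusted p = 0.0459). Over all tested genes 4.32% were called lower. MGP was the only 1 of the 9 with a negative log2 fold change. The others were higher in heat without passing, and the median of the list was 1.27. Heat 3 and control 1 were almost level for MGP. The calls of GDF9, KRT8, UPK3B and MGP were lost without heat 1, heat 2, control 2 or control 3 (edgeR adjusted p between 0.146 and 0.188) and with near-identical libraries summed (between 0.255 and 0.525). That of MGP was also lost without heat 3 (edgeR adjusted p = 0.0558), by limma-voom (adjusted p = 0.0908) and by limma on the normalized signal plus 1 or 0.5 (adjusted p = 0.0697 and 0.0703). With DESeq2 size factors GDF9 and KRT8 also missed the threshold (edgeR adjusted p = 0.0529 and 0.0502), as did GDF9 with upper quartile factors (edgeR adjusted p = 0.0507) and by limma-voom (adjusted p = 0.0544). The part of these markers in the HSD17B11 result was not tested.

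The genes whose profile over the 6 libraries was most like that of HSD17B11 were LNPK, DDX42 and SNX14. Their root mean square differences from it, in log2 CPM centred on each gene's mean, were 0.07, 0.0742 and 0.0854. LNPK encodes a protein of endoplasmic reticulum junctions, and stood at 42.1 to 45.0 CPM in heat against 99.4 to 134 CPM in control. DDX42, an RNA helicase, stood at 42.4 to 45.8 CPM in heat against 98.6 to 127 CPM in control. SNX14, a sorting nexin, stood at 203 to 206 CPM in heat against 440 to 584 CPM in control. These genes were picked for this likeness, which is given as a description.

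**Figure D2:**
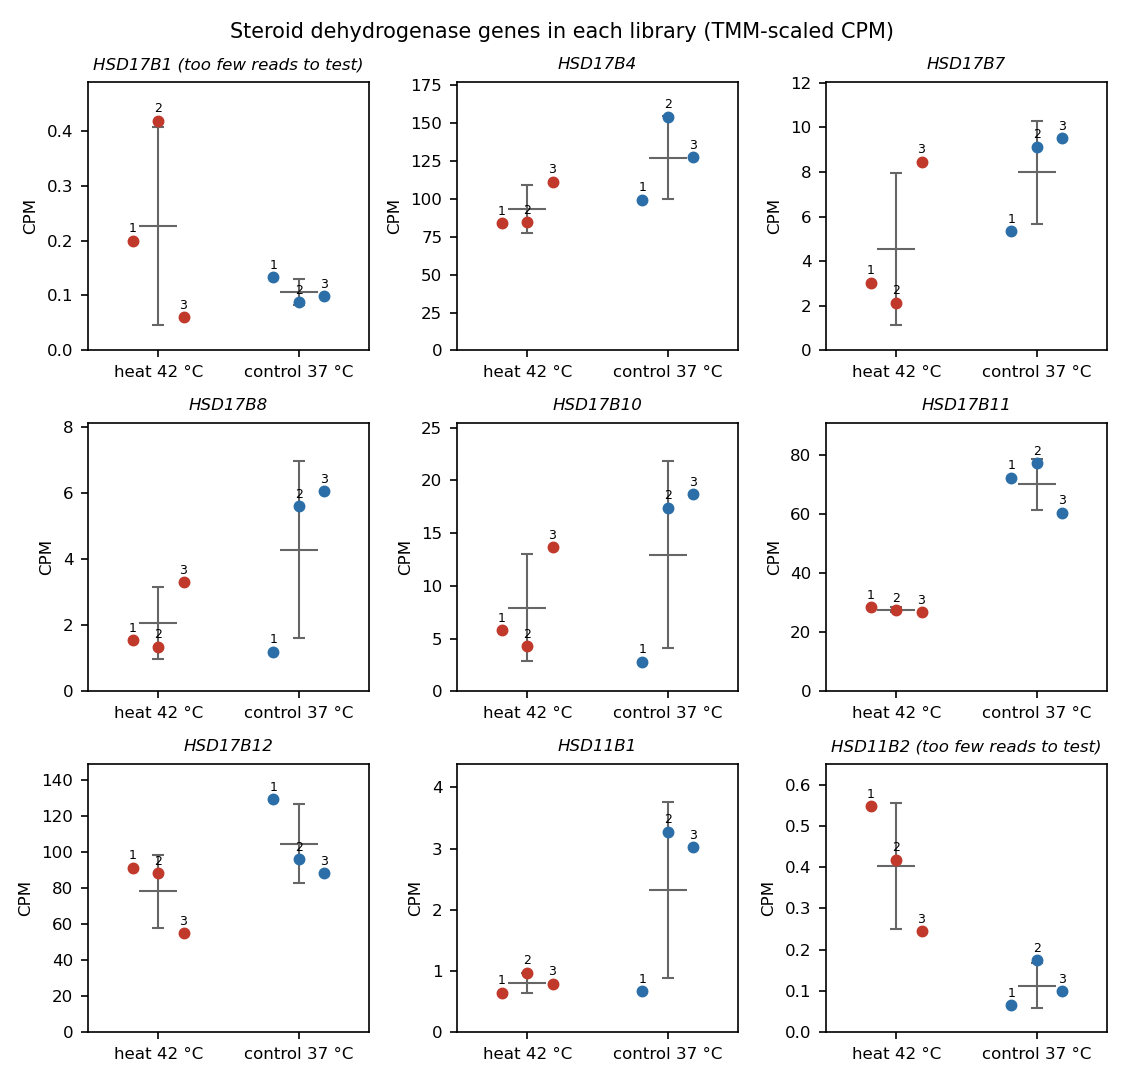
TMM-scaled CPM of each of the 9 steroid dehydrogenase genes with a row in the count table, in 3 heat (red) and 3 control (blue) libraries numbered by replicate. Grey bars give the mean and SD. HSD17B11 and HSD11B2 are the genes whose groups do not overlap, with heat below control for HSD17B11 and above it for HSD11B2, and the axes differ between panels.

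HSD17B1 (ENSSSCG00000035147, Sscrofa11.1 chromosome 12, 20269468 to 20271349), the estradiol-forming enzyme of granulosa cells, was almost silent. It had 4, 9 and 2 reads in heat 1, 2 and 3 and 2, 2 and 2 reads in control 1, 2 and 3. Heat 2 held most of the heat reads, and heat 3 lay at the level of the controls in reads and below them in CPM (0.0611 against 0.0873 to 0.134 CPM). The summed reads were 15 in heat and 6 in control (heat over control 1.95, with exact 95% bounds of 0.716 and 6.15 that reflect counting error alone). At this depth a difference was not detectable: with no filter on low counts the log2 fold change was 1.03 ± 1.08 (SE; edgeR adjusted p = 0.549).

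HSD11B2 (ENSSSCG00000002777, chromosome 6, 28084087 to 28089256), which inactivates cortisol, was likewise at the edge of detection. It had 11, 9 and 8 reads in heat 1, 2 and 3, against 1, 4 and 2 reads in control 1, 2 and 3. Each heat library was above each control library in reads and in CPM (0.245 to 0.549 against 0.0668 to 0.175 CPM). Of all tested genes 20.9% showed this order. Those genes passed the read filter that HSD11B2 did not, so the share is no direct background for it. The summed reads were 28 in heat and 7 in control (heat over control 3.13, with exact 95% bounds of 1.33 and 8.48 for counting error alone). With no filter its log2 fold change was 1.72 ± 0.93 (SE) and did not pass (edgeR adjusted p = 0.255).

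HSD11B1 (ENSSSCG00000015616, chromosome 9, 133231451 to 133278396), which regenerates cortisol, had 13, 21 and 26 reads in heat 1, 2 and 3, against 10, 75 and 61 reads in control 1, 2 and 3. In CPM it was at 0.648, 0.976 and 0.795 in heat and at 0.668, 3.28 and 3.03 in control. The control level came from control 2 and control 3, and control 1 lay within the range of the heat libraries. The mean was 0.806 ± 0.164 CPM in heat and 2.32 ± 1.44 CPM in control (SD, n = 3 each), with a log2 fold change of -1.53 ± 0.62 (SE) that missed the threshold (edgeR adjusted p = 0.130). Without control 1 it was called (log2 fold change -1.98, edgeR adjusted p = 0.0155), in a fit that called 4922 of 15407 genes. Leaving out any other library gave no call (edgeR adjusted p between 0.152 and 0.367). Some leukocyte markers were also high in control 2 and control 3. The 9 of them in the table summed to 6.33, 5.25 and 1.65 CPM in heat 1, 2 and 3, against 3.67, 31.6 and 63.9 CPM in control 1, 2 and 3, and LYZ (lysozyme) made up 26.3 and 54.2 CPM of control 2 and control 3. LYZ had 17, 4 and 8 reads in heat against 7, 602 and 1092 in control, and was called lower (edgeR adjusted p = 0.0447), a call that was lost on leaving out any library other than control 1 (edgeR adjusted p between 0.0742 and 0.158), with near-identical libraries summed (edgeR adjusted p = 0.166), with no filter on low counts (edgeR adjusted p = 0.118) and by limma-voom (adjusted p = 0.167). PTPRC, the pan-leukocyte marker CD45, had 0 reads in each heat library and 0, 35 and 64 reads in control 1, 2 and 3. AIF1 had 0, 0 and 2 reads in heat against 2, 30 and 46 in control, and CSF1R had 1, 0 and 1 reads in heat against 0, 7 and 11 in control. The other members of the list did not follow this order. CD79A had 33, 48 and 8 reads in heat against 5, 5 and 3 in control, and ITGAM had 7, 8 and 3 reads in heat against 0, 3 and 3 in control. CD14 was at 2.24, 1.95 and 0.703 CPM in heat against 1.80, 1.14 and 1.69 CPM in control, CD68 was at 1.20, 0.511 and 0.275 CPM in heat against 0.935, 0.655 and 1.74 CPM in control, and CD3E was at 0 in all libraries. Their part in the HSD11B1 values was not tested. In RefSeq the span of HSD11B1 overlaps that of C9H1orf74, and the rule that assigned reads of the overlap is not known here.

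HSD17B4, HSD17B7, HSD17B8 and HSD17B10 shared an order of libraries that crossed the groups. Heat 3, control 2 and control 3 lay above heat 1, heat 2 and control 1 in each of them, an order that 18.6% of all tested genes showed. The median log2 CPM of 50 ribosomal protein genes had the same order, at 6.13, 5.94 and 7.90 in heat 1, 2 and 3 and 6.31, 7.89 and 8.03 in control 1, 2 and 3, and each of the 50 showed it. The part of this difference between libraries in the 4 genes was not tested.

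**Figure D3:**
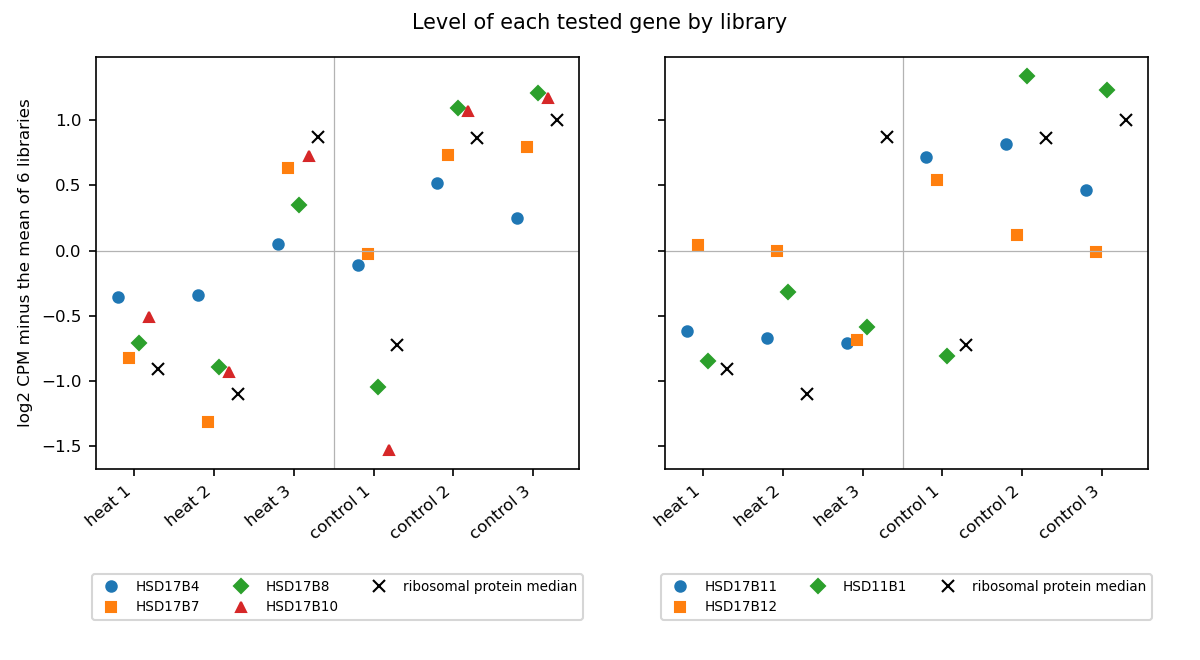
Log2 CPM of each tested steroid dehydrogenase gene minus its mean over the 6 libraries, by library, with the median of 50 ribosomal protein genes as crosses. In the left panel HSD17B4, HSD17B7, HSD17B8 and HSD17B10 are high in heat 3, control 2 and control 3, and in the right panel HSD17B11 separates the groups while HSD17B12 and HSD11B1 do not.

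HSD17B10 (ENSSSCG00000012327, chromosome X, 46218540 to 46220942) is a mitochondrial enzyme of isoleucine breakdown and a subunit of mitochondrial RNase P. It had 5.79, 4.28 and 13.7 CPM in heat 1, 2 and 3, against 2.80, 17.4 and 18.7 CPM in control 1, 2 and 3. Control 1 was the lowest of all libraries and heat 3 lay between it and the other controls. The highest library was 6.67 times the lowest, and the range in log2 CPM, 2.70, was wider than that of 81.3% of tested genes. The means of 7.92 ± 5.06 CPM in heat and 12.97 ± 8.83 CPM in control (SD, n = 3 each) differed by less than this spread (log2 fold change -0.71 ± 0.71, SE; edgeR adjusted p = 0.50). Its annotated span overlaps the end of RIBC1.

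HSD17B8 (ENSSSCG00000001476, chromosome 7, 25247577 to 25249786) encodes a subunit of the ketoacyl reductase of mitochondrial fatty acid synthesis and can also oxidise estradiol. It had 31, 29 and 108 reads in heat 1, 2 and 3, against 18, 128 and 122 reads in control 1, 2 and 3, that is 1.55, 1.35 and 3.30 CPM against 1.20, 5.59 and 6.05 CPM. Control 1 was again the lowest library. The log2 fold change was -1.05 ± 0.65 (SE) and missed the threshold (edgeR adjusted p = 0.284). Leaving out control 1 gave a call, at -1.5 (edgeR adjusted p = 0.0496), in a fit that called 4922 of 15407 genes.

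HSD17B7 (ENSSSCG00000006337, chromosome 4, 87720747 to 87743037) encodes the ketosteroid reductase of late cholesterol synthesis, which can also reduce estrone. It had 3.04, 2.14 and 8.47 CPM in heat 1, 2 and 3, against 5.34, 9.13 and 9.52 CPM in control 1, 2 and 3. Heat 3 lay above control 1, so the groups overlapped. The log2 fold change of -0.81 ± 0.55 (SE) did not pass (edgeR adjusted p = 0.328). Without heat 3 it passed, at -1.64 (edgeR adjusted p = 0.0258), in a fit that called 5530 of 15325 genes.

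HSD17B4 (ENSSSCG00000028431, chromosome 2, 123313445 to 123401386) encodes the peroxisomal multifunctional enzyme, which carries out the hydration and dehydrogenation steps of peroxisomal beta-oxidation and oxidises estradiol. It had 83.8, 84.8 and 111 CPM in heat 1, 2 and 3, against 99.4, 154 and 128 CPM in control 1, 2 and 3. The range over libraries was narrow, 0.88 in log2 CPM, and 11.7% of tested genes had a smaller one. The means were 93.3 ± 15.6 CPM in heat and 127 ± 27.5 CPM in control (SD, n = 3 each), a log2 fold change of -0.45 ± 0.31 (SE) that did not pass (edgeR adjusted p = 0.336).

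HSD17B12 (ENSSSCG00000021739, chromosome 2, 18461487 to 18611761) encodes the ketoacyl-CoA reductase of very long chain fatty acid elongation. It had 91.6, 88.5 and 55.2 CPM in heat 1, 2 and 3, against 129.7, 96.4 and 88.4 CPM in control 1, 2 and 3. Heat 3 was the lowest and control 1 the highest library, while the other libraries lay close together. The means were 78.4 ± 20.2 CPM in heat and 104.8 ± 21.9 CPM in control (SD, n = 3 each), a log2 fold change of -0.42 ± 0.33 (SE) that did not pass (edgeR adjusted p = 0.392). Its span overlaps an uncharacterised long noncoding RNA gene in RefSeq.

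A p above the threshold does not show that HSD17B4, HSD17B12 or the other uncalled members were unaffected by heat. Leaving out heat 3 and control 1 together, a fit chosen after the data were seen, called 6 members lower (all tested members except HSD17B12) and 0 higher. That fit rests on the nearly identical pairs heat 1 with heat 2 and control 2 with control 3 and called 12142 of 15251 genes.

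The pathways around these enzymes were followed in 9 lists that held 120 genes, of which 100 were tested. Over them 8 genes were called higher, 2 lower and 90 did not pass, with a median log2 fold change of 0.11. Over all tested genes 6.71% were called higher and 4.32% lower, so the share called higher in the lists lies near that background. None of the 10 calls passed without heat 1, heat 2, control 2 or control 3 (edgeR adjusted p between 0.133 and 0.211). Without heat 3 or control 1 all passed again except GPER1 without control 1 (edgeR adjusted p = 0.0559). Passing was common in these fits, which called 5530 of 15325 genes without heat 3 and 4922 of 15407 without control 1. This holds for every pass in them given below. With near-identical libraries summed none of the 10 calls passed. With all libraries kept separate, other settings ended the calls of CYP1B1 (10 CPM filter, edgeR adjusted p = 0.0555), PER1 (limma-voom adjusted p = 0.0518) and KLF9 (library totals only, edgeR adjusted p = 0.0623). The call of G6PC3 ended with DESeq2 size factors (edgeR adjusted p = 0.0513) and with no filter on low counts (edgeR adjusted p = 0.0587).

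Among 16 tested glucocorticoid receptors, cofactors and targets, 3 were called higher and 1 lower, against 6.71% and 4.32% of all tested genes. The other 12 did not pass, and the median log2 fold change was 1.01. The list joins HSP90 and its co-chaperones with receptors and targets, so its median does not describe the targets alone. At an unadjusted edgeR p below 0.05, 7 were higher and 1 lower, against 19.5% and 14.4% of all tested genes. DESeq2 called 6 higher and 1 lower, against 14.9% and 12.6%, and limma-voom 2 and 1, against 7.41% and 5.14%. FKBP4, a co-chaperone that binds HSP90 in steroid receptor complexes, stood at 215, 206 and 181 CPM in heat 1, 2 and 3 against 34.3, 40.0 and 44.9 CPM in control 1, 2 and 3. Its groups were far apart, with a log2 fold change of 2.34 ± 0.30 (SE; edgeR adjusted p = 0.0266). PER1, a clock gene that glucocorticoids induce, was at 27.6, 28.8 and 5.47 CPM in heat against 3.67, 1.22 and 2.23 CPM in control, with heat 3 much closer to the controls than heat 1 and heat 2. Its log2 fold change was 3.13 ± 0.70 (SE; edgeR adjusted p = 0.0393). KLF9, a transcription factor that is also a glucocorticoid target, went the other way, at 7.13 to 10.7 CPM in heat against 16.6 to 29.6 CPM in control (log2 fold change -1.41 ± 0.34, SE; edgeR adjusted p = 0.0420). G6PC3, a phosphatase of glucose phosphate in the endoplasmic reticulum, was at 10.6 to 16.5 CPM in heat against 5.24 to 6.08 CPM in control (edgeR adjusted p = 0.0461). The glucocorticoid receptor gene NR3C1 had overlapping groups, with 70.6 to 84.5 CPM in heat against 56.4 to 96.9 CPM in control (edgeR adjusted p = 0.945). H6PD, which makes the NADPH that HSD11B1 uses, was at 20.0, 21.7 and 10.4 CPM in heat against 16.4, 4.50 and 6.00 CPM in control. Its edgeR adjusted p was 0.242, and 0.0274 without control 1.

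Of 5 tested estrogen receptor and estrogen metabolism genes, GPER1 was called higher and CYP1B1 lower (median log2 fold change -0.73). Over all tested genes 6.71% were called higher and 4.32% lower. Of the 5, 1 was higher and 2 lower at an unadjusted edgeR p below 0.05, against 19.5% and 14.4% of all tested genes. DESeq2 called 1 higher and 1 lower, against 14.9% and 12.6%, and limma-voom 0 and 1, against 7.41% and 5.14%. CYP1B1, a cytochrome that hydroxylates estradiol, stood at 374, 348 and 296 CPM in heat 1, 2 and 3 against 619.5, 2059 and 1588 CPM in control 1, 2 and 3. Each heat library lay below each control, and control 1 lay nearer to the heat libraries than to the other controls (log2 fold change -2.07 ± 0.52, SE; edgeR adjusted p = 0.0455). GPER1, a membrane estrogen receptor, had 31, 25 and 16 reads in heat against 3, 3 and 5 in control (log2 fold change 2.43 ± 0.64, SE; edgeR adjusted p = 0.0495). Under 6 other settings that kept all libraries separate its adjusted p, by edgeR or limma, was between 0.0518 and 0.0773. With near-identical libraries summed its edgeR adjusted p was 0.487. ESR2, the estrogen receptor typical of granulosa cells, was at 0.948, 1.77 and 1.31 CPM in heat against 1.47, 4.50 and 3.67 CPM in control. Its edgeR adjusted p was 0.133, and 0.0269 without control 1.

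None of 11 tested steroid synthesis genes passed by edgeR or limma-voom (median log2 fold change 0.47). At an unadjusted edgeR p below 0.05, 3 were higher, against 19.5% of all tested genes, and DESeq2 called 2 higher, against 14.9%. The members with the highest means were POR, the electron donor of microsomal cytochromes, at 102, 95.8 and 46.6 CPM in heat against 71.8, 13.5 and 21.5 CPM in control (edgeR adjusted p = 0.222), and CYB5A, a cytochrome b cofactor, at 39.9, 41.0 and 79.6 CPM in heat against 28.2, 57.8 and 64.9 CPM in control (edgeR adjusted p = 0.902). POR passed without control 1 (edgeR adjusted p = 0.0195). CYP11A1, which makes pregnenolone from cholesterol, was at 69.6, 68.6 and 57.6 CPM in heat against 29.0, 44.0 and 36.3 CPM in control. Its groups did not overlap, but it did not pass (log2 fold change 0.84 ± 0.29, SE; edgeR adjusted p = 0.0906). Without heat 3 it was called (edgeR adjusted p = 0.0352). CYP19A1 and HSD3B1 had no matching identifier and are left out.

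**Figure D4:**
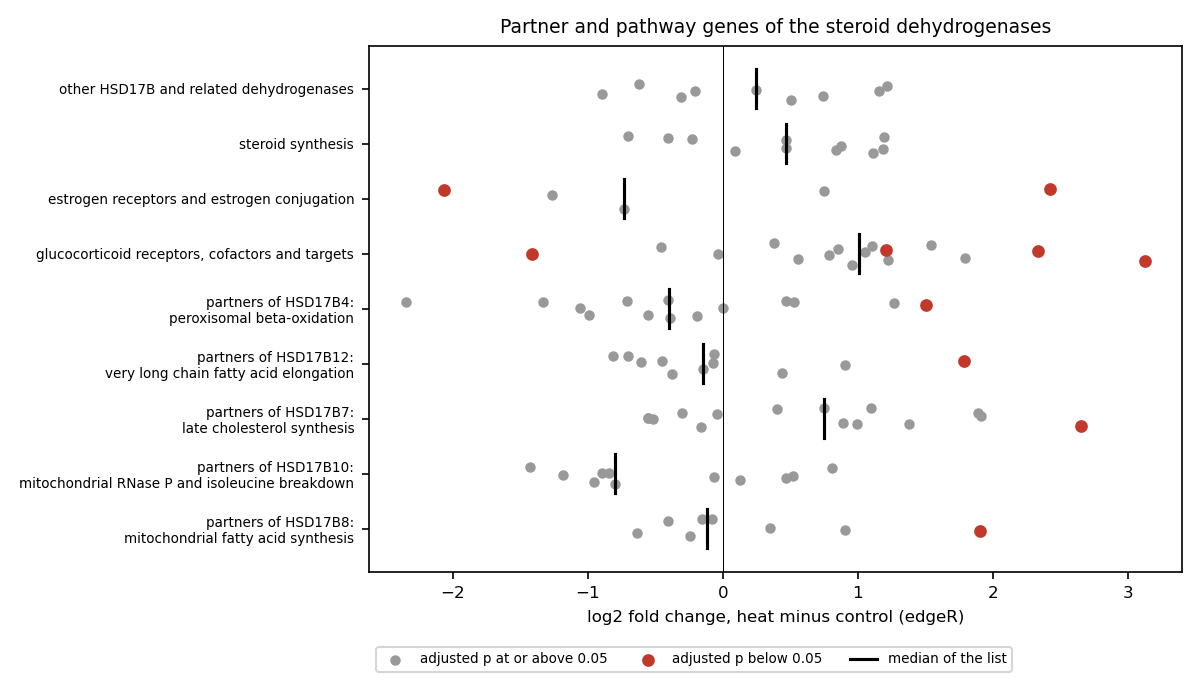
Log2 fold change, heat minus control, of the tested genes of 9 partner and pathway lists. Each point is a gene (red where the edgeR adjusted p is below 0.05) and the black bar is the median of its list, which runs from -0.80 for the partners of HSD17B10 to 1.01 for the glucocorticoid list.

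Among 15 tested genes of late cholesterol synthesis, the pathway of HSD17B7, 1 was called higher, 0 lower and 14 did not pass by edgeR (median log2 fold change 0.75). The fitted difference of HSD17B7 itself was negative. At an unadjusted edgeR p below 0.05, 7 of the 15 were higher and 0 lower, against 19.5% and 14.4% of all tested genes. DESeq2 called 4 of the 15 higher, against 14.9% of all tested genes, and limma-voom 3, against 7.41%.

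Among 14 tested peroxisomal partners of HSD17B4, 1 was called higher, 0 lower and 13 did not pass by edgeR (median log2 fold change -0.40). At an unadjusted edgeR p below 0.05, 2 were higher and 3 lower, against 19.5% and 14.4% of all tested genes. EHHADH, the other bifunctional enzyme of the peroxisome, was at 6.63, 5.53 and 21.2 CPM in heat against 22.5, 32.1 and 29.3 CPM in control. Heat 3 lay just under control 1, and its edgeR adjusted p was 0.127, with 0.00909 without heat 3 and a DESeq2 adjusted p of 0.0428.

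Among 11 tested partners of HSD17B12 in fatty acid elongation, the elongase ELOVL1 was called higher and 10 did not pass (median log2 fold change -0.15). Over all tested genes 6.71% were called higher. Of the 11, 1 was higher and 1 lower at an unadjusted edgeR p below 0.05, against 19.5% and 14.4% of all tested genes. ELOVL1 was at 63.8, 60.2 and 38.8 CPM in heat against 25.8, 9.69 and 11.6 CPM in control, again without overlap (log2 fold change 1.79 ± 0.45, SE; edgeR adjusted p = 0.0461).

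None of 11 tested partners of HSD17B10 passed by edgeR or limma-voom (median log2 fold change -0.80). At an unadjusted edgeR p below 0.05, 4 were lower and 1 higher, against 14.4% and 19.5% of all tested genes, and DESeq2 called 4 lower, against 12.6%. HADH and ECHS1, mitochondrial beta-oxidation enzymes with the highest means of the list, had edgeR adjusted p-values of 0.758 and 0.893. HADH was at 40.0 to 50.5 CPM in heat against 34.99 to 43.9 CPM in control, and ECHS1 at 33.4 to 54.2 CPM in heat against 38.9 to 44.9 CPM in control, so both overlapped. The other subunits of mitochondrial RNase P, unlike HSD17B10, had each heat library below each control. In this list 4 of the 11 tested showed that order and 1 showed the opposite one, against 16.8% and 20.9% of all tested genes. TRMT10C, the methyltransferase subunit, was at 7.73, 6.93 and 8.71 CPM in heat against 10.0, 15.2 and 16.7 CPM in control. PRORP, the nuclease subunit, was at 5.98, 5.53 and 7.49 CPM in heat against 9.55, 12.4 and 11.11 CPM in control. Neither passed (edgeR adjusted p = 0.107 for both), while DESeq2 gave them adjusted p-values of 0.0447 and 0.0375. Without control 1 both passed (edgeR adjusted p = 0.0238 for TRMT10C and 0.0427 for PRORP), and PRORP also did without heat 3 (edgeR adjusted p = 0.0299).

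Among 8 tested genes of mitochondrial fatty acid synthesis, the pathway of HSD17B8, ACSF3, which activates malonate in mitochondria, was called higher and 7 did not pass (median log2 fold change -0.12). Over all tested genes 6.71% were called higher. Of the 8, 1 was higher and 0 lower at an unadjusted edgeR p below 0.05, against 19.5% and 14.4% of all tested genes. ACSF3 was at 3.94, 3.91 and 2.995 CPM in heat against 1.14, 0.917 and 0.843 CPM in control (log2 fold change 1.90 ± 0.39, SE; edgeR adjusted p = 0.0339).

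None of 9 tested dehydrogenases related to the set passed by edgeR or limma-voom (median log2 fold change 0.24). At an unadjusted edgeR p below 0.05, 2 were higher, against 19.5% of all tested genes, and DESeq2 called 1 higher, against 14.9%. RDH11, a retinal reductase, was at 110, 102 and 67.1 CPM in heat against 139.9, 166 and 122 CPM in control, without overlap (edgeR adjusted p = 0.212). DHRS7 was at 63.7, 73.4 and 37.7 CPM in heat against 105, 58.0 and 54.1 CPM in control (edgeR adjusted p = 0.595). Of the HSD17B genes outside the set, HSD17B2 and HSD17B3 had at most 2 reads in any library.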

How the data were processed

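Per the submitters' processing notes, the tools were FastQC 0.11.4, Trim Galore and the aligner STAR, with the Sscrofa11.1 assembly. The sources used here do not name the counting tool, the annotation release or the strand setting. One deposited table gives the authors' unnormalized count of reads for each Ensembl gene and library. Their deposited normalized signal holds the counts of 13298 genes divided by 1 size factor per library, since 100% of its values came back as whole reads within 1e-06.

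Symbols came from a reference table that matched 15623 identifiers, and coordinates from RefSeq on Sscrofa11.1 by symbol. HSD17B11 has none there. Genes were kept by filterByExpr (minimum count 10) and tested with edgeR 4.0.16 in R 4.3.3 (TMM, robust quasi-likelihood F test, two-sided). Each SE was obtained from the test, as the size of the log2 fold change over the root of its F value. The code was first run on simulated libraries drawn independently, without the near-identical pairs seen here. That check cannot show how the test performs with such pairs. Alternatives used limma 3.58.1 and DESeq2 1.42.0.

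The members and lists were chosen with earlier results of these data known. List genes were named if called (up to 4), otherwise the 2 with the highest mean. CYP11A1, ESR2, NR3C1, H6PD, EHHADH, TRMT10C, PRORP, HSD17B2, HSD17B3 and the marker genes KRT7, KRT8, KRT18, UPK3B, MGP, NR2F2, PTCH1, AIF1, CSF1R, CD14, CD68, ITGAM and CD79A were named after their values were seen. Some genes that qualified are not reported here.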

Additional observations from a re-analysis of the deposited data

How the results depend on the processing

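Each of the 7 tested members kept a negative log2 fold change in every alternative that tested it (up to 19), and the 5 settings in which HSD17B11 lost its call are those without heat 1, heat 2, control 2 or control 3 and the sum of near-identical libraries (edgeR adjusted p = 0.413). Other settings that moved counts follow, and the cause was not tested. Over all genes 956 were called higher and 615 lower. Higher calls numbered 1583 with library totals only, 1607 with no filter, 532 with a filter of 10 CPM in 3 libraries, 2118 by DESeq2, 0 to 3021 leaving out 1 library, 6285 without control 1 and heat 3 together and 2 with near-identical libraries summed. Lower calls numbered 396 with the 10 CPM filter, 1792 by DESeq2, 950 with limma on the normalized signal plus 1, 0 to 2713 leaving out 1 library, 5857 without control 1 and heat 3 together and 0 with near-identical libraries summed. Members called lower numbered 0 to 3 leaving out 1 library, 6 without control 1 and heat 3 together and 0 with near-identical libraries summed.

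In the partner and pathway lists, higher calls numbered 5 with DESeq2 size factors, 15 with library totals only, 18 by DESeq2, 0 to 26 leaving out 1 library, 40 without control 1 and heat 3 together and 0 with near-identical libraries summed. Lower calls numbered 1 with library totals only or the 10 CPM filter, 4 with no filter or with limma on the normalized signal plus 1 or 0.5, 10 by DESeq2, 0 to 20 leaving out 1 library, 35 without control 1 and heat 3 together and 0 with near-identical libraries summed. Library totals alone moved the median of all genes by 0.12.

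The replicate number as a block gave 2104 genes higher and 1300 lower, with 17 and 5 in the lists. Deviations of same-numbered libraries from their group means correlated at r = 0.299, -0.232 and 0.223 for numbers 1, 2 and 3. Heat and control libraries with different numbers gave r between -0.296 and 0.287. With 3 libraries a group, these values cannot decide whether the number is a pairing.

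Genes with a difference near 0 changed sign. Without control 1 and heat 3 together the log2 fold changes of DHRS7, CYB5A and HADH were 0.269, -0.621 and -0.0955. Leaving out 1 library, they lay between -0.521 and 0.0328 for DHRS7, -0.329 and 0.281 for CYB5A, -0.0022 and 0.187 for HADH, -0.345 and 0.0581 for ECHS1, and -0.255 and 0.0958 for NR3C1. ECHS1 was at 0.0657 and NR3C1 at 0.0427 with library totals only, and at 0.0347 and 0.105 with the 10 CPM filter. NR3C1 was at 0.00475 by limma-voom and at 0.000384 with near-identical libraries summed.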
